A study of Mus musculus with 50 samples.

Results

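The 42 genes described here are transcribed mainly in dividing cells: 20 act in S phase, in loading and running the replication machinery or in making its substrates, and 22 act in G2 and mitosis. They were taken by name, and all 42 were found among the 33924 gene symbols of both count tables. The study sequenced RNA from mouse blood-forming cells that carry a mutant Flt3 allele, alone or with mutant Npm1 or Dnmt3a, in 50 libraries of 16 groups. LSK cells (lineage-negative, Sca1+ and Kit+, a population that holds the stem cells) and GMPs (granulomyeloid progenitors) were sorted 4 weeks into the experiment from WT mice and at 2, 4, 6 and 8 weeks from Flt3 mice (3 libraries a group). A second table holds the same 2 cell types from Npm1 Flt3 mice (4 libraries each) and Dnmt3a Flt3 mice (3 each), for which the labels give no time point, and lineage-negative stem and progenitor cells (Lin- HSPCs) from Npm1 Flt3 mice given vehicle or tamoxifen (TAM) over 7 days (3 each). TAM switches on a Cre meant to remove the mutant Flt3 allele. The TAM and vehicle mice thus share the Npm1 and Flt3 mutations at the start and are meant to differ in the Flt3 mutation afterwards. Loss of the allele was not measured here. No group was given TAM without that Cre, so TAM, Cre activity and loss of the allele cannot be told apart. Mutations were switched on by Cre, Dre or Flp recombinase and mice were killed at a set time or once symptomatic. The labels do not say which recombinase, which promoter driving it, or which of the 2 outcomes applied to a mouse, and they give no strain, age or sex.

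As background, a cell that commits to division passes the G1 restriction point when cyclin-dependent kinases phosphorylate Rb family proteins and release E2F factors, which switch on the replication genes. MCM helicases are loaded onto origins by Cdc6 and Cdt1 in G1 and fired in S phase, and the mitotic kinases, cyclins and spindle proteins build up later, in G2, through the MuvB complex with B-Myb and FoxM1. In bone marrow, stem cells divide rarely whereas progenitors such as GMPs divide often, so the summed level of these transcripts in a sorted population is often read as a measure of cycling. In bulk RNA, fewer cells of a type and less RNA per cell cannot be told apart. This holds for every difference below.

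The 2 sets differ in sequence before any expression is considered, and 4 promoters are shown because they carry the words that E2F and MuvB proteins are known to bind. Of the 42 members, 36 had a window in the RefSeq table for GRCm38.p6 (38 windows, each 250 bases before to 50 after the annotated start); Mcm4, Gins2, Ccne2, Ccna2, Aurkb and Tpx2 had none. Words of 3 kinds were searched on both strands: the core of the cell cycle genes homology region, TTTGAA, bound by MuvB; the CCAAT box, CCAAT, bound by NF-Y; and 4 E2F-like words, TTTCCCGC, TTTCGCGC, TTTGCCGC and TTTGGCGC, of which pairs can overlap on opposite strands. The lines below give the 250 bases before the start, 5′ to 3′ on the gene's strand, with every such word in capitals. The Mcm5 stretch is chr8:75109259-75109508 (plus strand) and that of Mcm6 is chr1:128359706-128359955 (minus strand); both genes encode subunits of the replicative helicase. The Cdk1 stretch is chr10:69352913-69353162 (minus strand), and Cdk1 encodes the kinase that drives mitotic entry. The Top2a stretch is chr11:99024190-99024439 (minus strand), and Top2a encodes the topoisomerase that untangles sister chromosomes.
Mcm5: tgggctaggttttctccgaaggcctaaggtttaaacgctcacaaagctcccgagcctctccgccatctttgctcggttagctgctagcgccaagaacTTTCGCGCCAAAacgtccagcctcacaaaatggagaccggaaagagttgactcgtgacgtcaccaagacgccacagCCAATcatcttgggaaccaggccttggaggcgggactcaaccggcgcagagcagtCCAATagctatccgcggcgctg
Mcm6: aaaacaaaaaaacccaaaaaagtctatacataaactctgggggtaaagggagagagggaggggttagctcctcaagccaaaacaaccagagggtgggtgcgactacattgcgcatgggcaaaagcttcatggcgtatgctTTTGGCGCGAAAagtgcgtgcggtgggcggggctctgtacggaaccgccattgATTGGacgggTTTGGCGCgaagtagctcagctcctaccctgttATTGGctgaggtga
Cdk1: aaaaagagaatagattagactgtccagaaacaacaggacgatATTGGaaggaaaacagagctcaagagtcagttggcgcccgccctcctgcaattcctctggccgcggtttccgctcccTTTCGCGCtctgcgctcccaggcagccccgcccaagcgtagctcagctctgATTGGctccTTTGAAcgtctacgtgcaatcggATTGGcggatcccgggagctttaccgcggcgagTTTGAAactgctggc
Top2a: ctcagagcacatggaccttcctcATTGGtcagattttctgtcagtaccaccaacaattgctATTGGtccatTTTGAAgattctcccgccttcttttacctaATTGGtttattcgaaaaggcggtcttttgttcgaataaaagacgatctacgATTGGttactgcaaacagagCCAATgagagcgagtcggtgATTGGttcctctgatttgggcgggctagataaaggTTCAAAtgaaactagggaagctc

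Both MCM promoters hold an overlapping pair of E2F-like words on opposite strands, at -153 to -142 in Mcm5 and at -110 to -99 in Mcm6, and Mcm6 holds 1 more at -47. Cdk1 and Top2a each hold 2 TTTGAA words and several CCAAT boxes, and Cdk1 also holds 1 E2F-like word at -131. Over the sets, TTTGAA occurred in 14 of 19 G2/M windows (73.68%) and in 2 of 19 S phase windows (10.53%, Fen1 and Mcm2), against 17.89% of all 32851 promoter windows of the same length. E2F-like words occurred in 7 of 19 S phase windows (36.84%: Cdc6, Cdt1, Mcm3, Mcm5, Mcm6, Mcm7 and Pola1) and in 1 of 19 G2/M windows (5.26%, Cdk1), against 2.26% of all windows. CCAAT was in 17 of 19 G2/M windows (89.47%), 11 of 19 S phase windows (57.89%) and 37.41% of all windows. These are shares of windows and not of genes, as Mcm7 had more than 1 window. A match to these letters is a description of sequence, not of binding.

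Library depth ran from 306571 to 8249135 counts in the first table and from 15053592 to 128057407 in the second. One library, Flt3 8-week GMP replicate 2, held 1942 counts, of which 7 fell on members; it has no weight in the levels given here, so that group has n = 2. In the second table, Dnmt3a Flt3 LSK replicate 1 and Dnmt3a Flt3 GMP replicate 2 carry sample codes that end in the letter of the other cell type; they were left out, so each Dnmt3a Flt3 group has n = 2. Flt3 mRNA itself stood at 16.8, 26.4 and 28.2 counts per 1000000 counts of the library (CPM) in the 3 WT GMP libraries and at 122, 129 and 157.6 in 4-week Flt3 GMPs, and at 159.7, 219 and 219.7 in WT against 269, 244 and 254 in 4-week Flt3 LSK cells. A mutation need not change its own transcript, so this describes the groups and does not test their genotype. The summed CPM of 6 GMP markers was 45216 to 55081 in WT GMPs, 14684 to 31298 in Flt3 GMPs, 3027 to 4623 in WT LSK and 1608 to 5339.7 in Flt3 LSK cells, so sorted GMPs stood above LSK cells in every library used. All WT libraries share 1 series of sample codes and all Flt3 libraries another, so the genotypes and the 2 series of codes cannot be told apart. Libraries came from a paired-end or a 3′ end-counting single-end kit, with no label saying which was used where, and levels are not compared between the 2 tables. The replicates used in a group carry different numbers in their sample codes, which are taken here as animal numbers although no label says so, and p-values measure the spread between these libraries.

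The S phase sum, the CPM of the 20 S phase members added up, stood at 4618, 4711 and 4335 in WT GMPs and at 4651, 5407 and 4854 in WT LSK cells, so the 2 cell types overlapped. In Flt3 GMPs it was 3031, 2244 and 3093 at 2 weeks and 4695 to 5502 over the 8 later libraries. In Flt3 LSK cells it was 3773, 3448 and 3042 at 2 weeks and 4819 to 5982 over the 9 later libraries. The 2-week libraries were thus the lowest Flt3 libraries in both cell types, with no overlap. The G2/M sum, over 22 members, did not overlap between WT GMPs and WT LSK cells. It was 2831, 2929.7 and 2987 in the former and 3259, 3588 and 3202 in the latter. At 2 weeks it was 2875, 2452 and 3148 in Flt3 GMPs and 2978, 2973 and 2916 in Flt3 LSK cells, against 3295 to 4172 and 3232 to 3884 later, again below every later library but by a smaller margin. The 2 sums therefore moved apart: the ratio of G2/M to S phase sum was 0.948 to 1.09 in 2-week and 0.622 to 0.867 in later GMPs, and 0.789 to 0.959 in 2-week and 0.57 to 0.806 in later LSK cells.

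In the second table the S phase sum was 3334, 5484, 4469.8 and 4743 CPM in Npm1 Flt3 GMPs and 7952 and 7892 in Dnmt3a Flt3 GMPs, and 4546, 6354, 6095 and 4945 in Npm1 Flt3 and 8755 and 8777 in Dnmt3a Flt3 LSK cells. Both Dnmt3a Flt3 groups lay above every Npm1 Flt3 library of the same cell type. Vehicle HSPCs held 6974, 7263 and 7128 CPM and TAM HSPCs 2467, 1504 and 2829, so the lowest vehicle library held well over the highest TAM library. The G2/M sum was likewise higher in Dnmt3a Flt3 than in Npm1 Flt3 cells of the same type, and in vehicle than in TAM HSPCs. It was 3422, 3819.9, 3340.2 and 3288 in Npm1 Flt3 and 4374 and 4904 in Dnmt3a Flt3 GMPs. In the LSK cells it was 3826, 4587, 4726 and 3913 against 6464 and 6148. HSPCs held 5427, 7000.2 and 6804 in vehicle against 2218, 1292 and 2818 in TAM libraries.

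**Figure D1:**
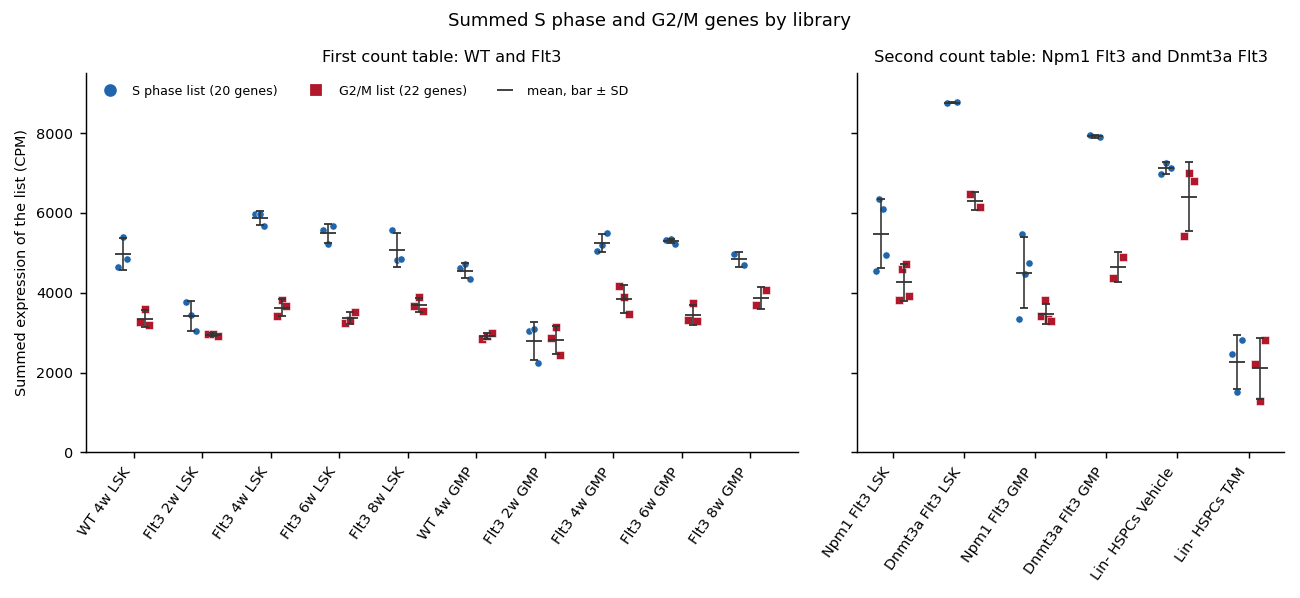
Summed CPM of the 20 S phase and the 22 G2/M members in each library, by group; points are libraries, and the dark marks give the group mean with a bar of ± 1 SD. The 2-week Flt3 libraries lie below all later Flt3 libraries, and TAM HSPCs (1504 to 2829 CPM for S phase) lie below vehicle HSPCs (6974 to 7263 CPM).

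Single members are followed here through all 16 groups as mean ± SD of CPM (n = 3, but 4 in the Npm1 Flt3 LSK and GMP groups and 2 in 8-week Flt3 GMPs and both Dnmt3a Flt3 groups). Mcm5 (chr8:75109569-75128439, plus strand of mm10) is a subunit of the MCM helicase. In GMPs Mcm5 averaged 349 ± 24.3 CPM in WT and, in Flt3 cells, 205 ± 67.0 at 2 weeks, 404 ± 23.2 at 4 weeks, 397 ± 12.8 at 6 weeks and 357 ± 10.7 at 8 weeks. Mcm5 means in LSK cells were 336 ± 36.3 CPM in WT and, in Flt3 cells, 259 ± 18.4, 442 ± 27.4, 390.4 ± 24.7 and 391 ± 19.3 at the same 4 times. Mcm5 stood, in the second table, at 494 ± 138 CPM in Npm1 Flt3 GMPs, 621 ± 153 in Npm1 Flt3 LSK cells, 827 ± 11.6 in Dnmt3a Flt3 GMPs and 858 ± 25.8 in Dnmt3a Flt3 LSK cells, with 678 ± 35.6 in vehicle and 225 ± 81.5 in TAM HSPCs. Within each table its lowest group was 2-week Flt3 GMP and TAM HSPC, respectively, and the 3 libraries of each lay below those of the later weeks or of vehicle. Pcna (chr2:132249162-132253314, minus strand) encodes the sliding clamp of the replicative polymerases. In GMPs Pcna averaged 223 ± 48.7 CPM in WT and, in Flt3 cells, 119 ± 13.2 at 2 weeks, 201 ± 19.6 at 4 weeks, 209.8 ± 22.2 at 6 weeks and 203 ± 15.1 at 8 weeks. Pcna means in LSK cells were 218 ± 14.9 CPM in WT and, in Flt3 cells, 159 ± 12.0, 246 ± 15.5, 220.1 ± 19.6 and 249 ± 41.5 at the same 4 times. Pcna stood, in the second table, at 209 ± 18.1 CPM in Npm1 Flt3 GMPs, 331 ± 35.2 in Npm1 Flt3 LSK cells, 205 ± 15.4 in Dnmt3a Flt3 GMPs and 273 ± 2.05 in Dnmt3a Flt3 LSK cells, with 367 ± 23.8 in vehicle and 152 ± 38.0 in TAM HSPCs. Its lowest group in the first table was again 2-week Flt3 GMP.

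Rrm2 (chr12:24708241-24714146, plus strand) encodes the small subunit of ribonucleotide reductase, which makes the deoxynucleotides. In GMPs Rrm2 averaged 466 ± 64.2 CPM in WT and, in Flt3 cells, 305 ± 39.7 at 2 weeks, 522 ± 93.8 at 4 weeks, 489 ± 82.6 at 6 weeks and 461 ± 1.30 at 8 weeks. Rrm2 means in LSK cells were 353 ± 20.5 CPM in WT and, in Flt3 cells, 329 ± 42.6, 456 ± 43.6, 431 ± 41.4 and 394 ± 57.2 at the same 4 times. Rrm2 stood, in the second table, at 348 ± 55.8 CPM in Npm1 Flt3 GMPs, 313 ± 71.2 in Npm1 Flt3 LSK cells, 509 ± 24.3 in Dnmt3a Flt3 GMPs and 485 ± 31.0 in Dnmt3a Flt3 LSK cells, with 502 ± 13.8 in vehicle and 219 ± 79.6 in TAM HSPCs. WT GMPs (413, 537 and 447) lay above WT LSK cells (332, 373 and 353) with no overlap. Ccne1 (chr7:38097984-38107534, minus strand) encodes cyclin E1, which drives entry into S phase with Cdk2. In GMPs Ccne1 averaged 25.4 ± 10.1 CPM in WT and, in Flt3 cells, 23.0 ± 6.69 at 2 weeks, 33.6 ± 10.4 at 4 weeks, 31.1 ± 5.08 at 6 weeks and 36.0 ± 8.79 at 8 weeks. Ccne1 means in LSK cells were 21.5 ± 5.72 CPM in WT and, in Flt3 cells, 32.3 ± 6.84, 26.6 ± 7.32, 26.7 ± 5.54 and 27.7 ± 19.1 at the same 4 times. Ccne1 stood, in the second table, at 14.4 ± 1.57 CPM in Npm1 Flt3 GMPs, 29.9 ± 16.1 in Npm1 Flt3 LSK cells, 6.07 ± 1.33 in Dnmt3a Flt3 GMPs and 6.51 ± 0.616 in Dnmt3a Flt3 LSK cells, with 17.1 ± 0.186 in vehicle and 10.9 ± 1.86 in TAM HSPCs. Unlike Mcm5, Pcna and Rrm2, it was not lowest at 2 weeks in LSK cells, and within the second table its lowest means were those of Dnmt3a Flt3 cells.

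Mki67 (chr7:135689784-135716361, minus strand) encodes Ki-67, a coat protein of mitotic chromosomes used as a marker of cycling cells. In GMPs Mki67 averaged 21.4 ± 2.47 CPM in WT and, in Flt3 cells, 43.9 ± 8.93 at 2 weeks, 45.6 ± 9.33 at 4 weeks, 37.4 ± 1.76 at 6 weeks and 98.2 ± 79.1 at 8 weeks. Mki67 means in LSK cells were 78.9 ± 60.3 CPM in WT and, in Flt3 cells, 61.6 ± 19.3, 44.9 ± 0.728, 40.9 ± 5.93 and 109 ± 59.2 at the same 4 times. Mki67 stood, in the second table, at 417 ± 26.2 CPM in Npm1 Flt3 GMPs, 389 ± 72.7 in Npm1 Flt3 LSK cells, 180.1 ± 17.8 in Dnmt3a Flt3 GMPs and 251 ± 13.2 in Dnmt3a Flt3 LSK cells, with 561 ± 92.9 in vehicle and 253 ± 69.5 in TAM HSPCs. Single libraries drove some of the SDs: WT LSK cells held 147, 56.9 and 32.6 CPM and 8-week Flt3 GMPs 42.3 and 154. Top2a (chr11:98992943-99024189, minus strand) encodes topoisomerase II alpha. In GMPs Top2a averaged 106 ± 27.4 CPM in WT and, in Flt3 cells, 139 ± 33.1 at 2 weeks, 191 ± 16.0 at 4 weeks, 205 ± 34.2 at 6 weeks and 276 ± 135 at 8 weeks. Top2a means in LSK cells were 213 ± 56.3 CPM in WT and, in Flt3 cells, 154 ± 7.64, 213 ± 32.5, 184 ± 20.6 and 312 ± 137 at the same 4 times. Top2a stood, in the second table, at 399.7 ± 29.4 CPM in Npm1 Flt3 GMPs, 535 ± 39.4 in Npm1 Flt3 LSK cells, 589 ± 16.4 in Dnmt3a Flt3 GMPs and 867 ± 24.9 in Dnmt3a Flt3 LSK cells, with 954 ± 141 in vehicle and 259.7 ± 123 in TAM HSPCs. It too was spread widely in 8-week Flt3 cells, with 180.1 and 371 CPM in GMPs and 194, 461 and 281 in LSK cells.

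Ccnb1 (chr13:100778650-100786570, minus strand) encodes cyclin B1, the mitotic partner of Cdk1. In GMPs Ccnb1 averaged 237 ± 26.8 CPM in WT and, in Flt3 cells, 159 ± 12.8 at 2 weeks, 261 ± 41.7 at 4 weeks, 224 ± 23.0 at 6 weeks and 238 ± 18.9 at 8 weeks. Ccnb1 means in LSK cells were 238 ± 37.2 CPM in WT and, in Flt3 cells, 179 ± 16.1, 251 ± 7.21, 253 ± 11.9 and 228 ± 53.1 at the same 4 times. Ccnb1 stood, in the second table, at 125 ± 14.2 CPM in Npm1 Flt3 GMPs, 159 ± 46.3 in Npm1 Flt3 LSK cells, 221 ± 21.9 in Dnmt3a Flt3 GMPs and 345 ± 38.9 in Dnmt3a Flt3 LSK cells, with 423 ± 73.3 in vehicle and 117 ± 51.3 in TAM HSPCs. The 4 to 8 week Flt3 means lay within 1 SD of the WT means in both cell types. Cdk1 (chr10:69335146-69352938, minus strand) encodes the mitotic kinase. In GMPs Cdk1 averaged 230.3 ± 10.4 CPM in WT and, in Flt3 cells, 163 ± 23.6 at 2 weeks, 208 ± 51.9 at 4 weeks, 178 ± 14.6 at 6 weeks and 203 ± 11.8 at 8 weeks. Cdk1 means in LSK cells were 195 ± 27.5 CPM in WT and, in Flt3 cells, 155 ± 6.83, 206 ± 15.1, 180.5 ± 31.4 and 223 ± 36.9 at the same 4 times. Cdk1 stood, in the second table, at 185 ± 19.1 CPM in Npm1 Flt3 GMPs, 283 ± 40.5 in Npm1 Flt3 LSK cells, 217 ± 12.4 in Dnmt3a Flt3 GMPs and 266 ± 7.32 in Dnmt3a Flt3 LSK cells, with 369.7 ± 56.0 in vehicle and 103 ± 26.5 in TAM HSPCs. Of the 10 groups of the first table, 2-week LSK was the lowest (162, 149 and 153). Birc5 (chr11:117849251-117855743, plus strand) encodes survivin, a subunit of the chromosomal passenger complex. In GMPs Birc5 averaged 367 ± 31.3 CPM in WT and, in Flt3 cells, 361 ± 26.5 at 2 weeks, 516 ± 58.0 at 4 weeks, 442 ± 26.4 at 6 weeks and 503 ± 6.20 at 8 weeks. Birc5 means in LSK cells were 346 ± 25.2 CPM in WT and, in Flt3 cells, 407 ± 11.4, 443 ± 79.6, 383 ± 33.5 and 414 ± 28.2 at the same 4 times. Birc5 stood, in the second table, at 173.7 ± 17.5 CPM in Npm1 Flt3 GMPs, 258 ± 25.5 in Npm1 Flt3 LSK cells, 163 ± 20.2 in Dnmt3a Flt3 GMPs and 218 ± 15.7 in Dnmt3a Flt3 LSK cells, with 310.1 ± 16.1 in vehicle and 121 ± 43.1 in TAM HSPCs. Its ranges in 2-week (375, 330.0 and 377) and WT GMPs (340.0, 401 and 359) overlapped.

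**Figure D2:**
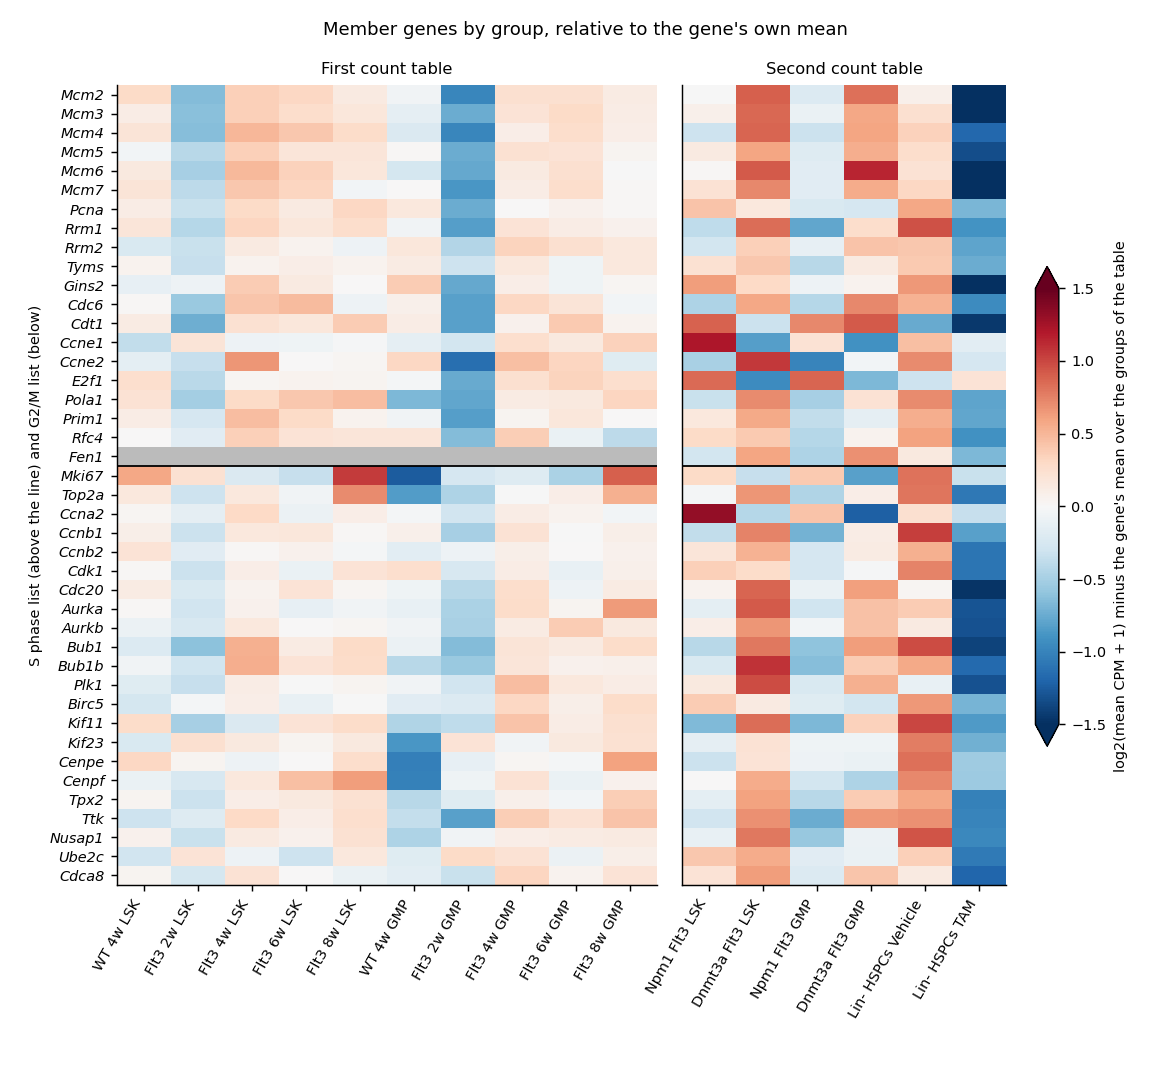
Each of the 42 members (rows, S phase above G2/M) in each group (columns), as log2 of the group's mean CPM plus 1, minus the gene's own mean of that value over the groups of the same table; colours saturate beyond 1.5 in either direction, and Fen1 is grey in the first table, where it was too low to test. Most S phase rows are blue in the 2-week Flt3 groups, and nearly all rows are blue in TAM HSPCs, E2f1 excepted.

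The largest differences among members were those between TAM and vehicle HSPCs, where TAM itself and loss of the mutant Flt3 allele cannot be told apart. In Npm1 Flt3 Lin- HSPCs after 7 days of TAM, 19 of 20 S phase members and 22 of 22 G2/M members fell relative to vehicle (edgeR quasi-likelihood test with TMM scaling, Benjamini-Hochberg adjusted p under 0.05 over the 25269 genes tested), where 21.3% of all genes fell and 10.1% rose. The median log2 change was -2.76 for S phase and -2.85 for G2/M members, against 0.56 for all genes, so members of both sets fell by similar amounts. The member that missed the threshold was E2f1, the factor that switches on replication genes (-0.69 ± 0.39, adjusted p = 0.164); it is named because it was the exception, and its CPM was 16.9, 14.9 and 12.8 in vehicle and 28.6, 19.1 and 17.5 in TAM libraries.

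Among S phase members, Gins2 encodes a subunit of the GINS complex that joins the MCM ring to form the active helicase. It held 101, 90.7 and 112 CPM in vehicle and 25.8, 16.3 and 20.8 in TAM libraries. With TMM scaling the fall was 11.3-fold (log2 -3.50 ± 0.39, adjusted p = 1.1e-07 by edgeR). The CPM are not scaled by TMM, so in this contrast they show smaller falls than the folds and log2 changes beside them. Mcm7, of the MCM ring, went from 724, 637 and 688 to 219, 109 and 200.1 CPM (log2 -3.20 ± 0.39, adjusted p = 5.04e-07). Mcm3, of the same ring, went from 796, 753 and 705 to 206, 135 and 263 CPM (log2 -3.15 ± 0.39). No TAM library reached any vehicle library for these 3 genes, and TAM replicate 2 was the lowest of the 3 for each. Rrm1, the large subunit of ribonucleotide reductase, went from 1014, 1128 and 1199 to 371, 168.8 and 379 CPM (log2 -3.14 ± 0.41). Cyclin E1 changed less: Ccne1 held 16.9, 17.2 and 17.1 CPM in vehicle and 12.0, 12.1 and 8.78 in TAM (log2 -1.87 ± 0.41, adjusted p = 0.000744). The origin-loading factors fell too, Cdc6 by 2.77 and Cdt1 by 1.95 on the log2 scale.

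Among G2/M members, Bub1, a kinase of the spindle checkpoint, held 148, 203 and 199 CPM in vehicle and 40.9, 18.1 and 44.7 in TAM libraries. With TMM scaling its fall was 13.1-fold (log2 -3.71 ± 0.43, adjusted p = 2.05e-07 by edgeR). Cdk1 went from 305, 408 and 396 to 113, 72.3 and 122 CPM (log2 -3.14 ± 0.40, adjusted p = 1e-06), and its partner Ccnb1 from 338, 467 and 464 to 125, 61.9 and 163.5 CPM (log2 -3.16 ± 0.42). Nusap1, which bundles spindle microtubules, went from 255, 368 and 355 to 87.1, 43.8 and 127 CPM (log2 -3.23 ± 0.43). For all 4 the TAM and vehicle libraries did not overlap, and again TAM replicate 2 was lowest. Top2a (log2 -3.18 ± 0.42), Birc5 (log2 -2.61 ± 0.39) and Mki67 (log2 -2.46 ± 0.40) fell as well, and cyclin A2, encoded by Ccna2, fell least (-1.91 ± 0.42).

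**Figure D3:**
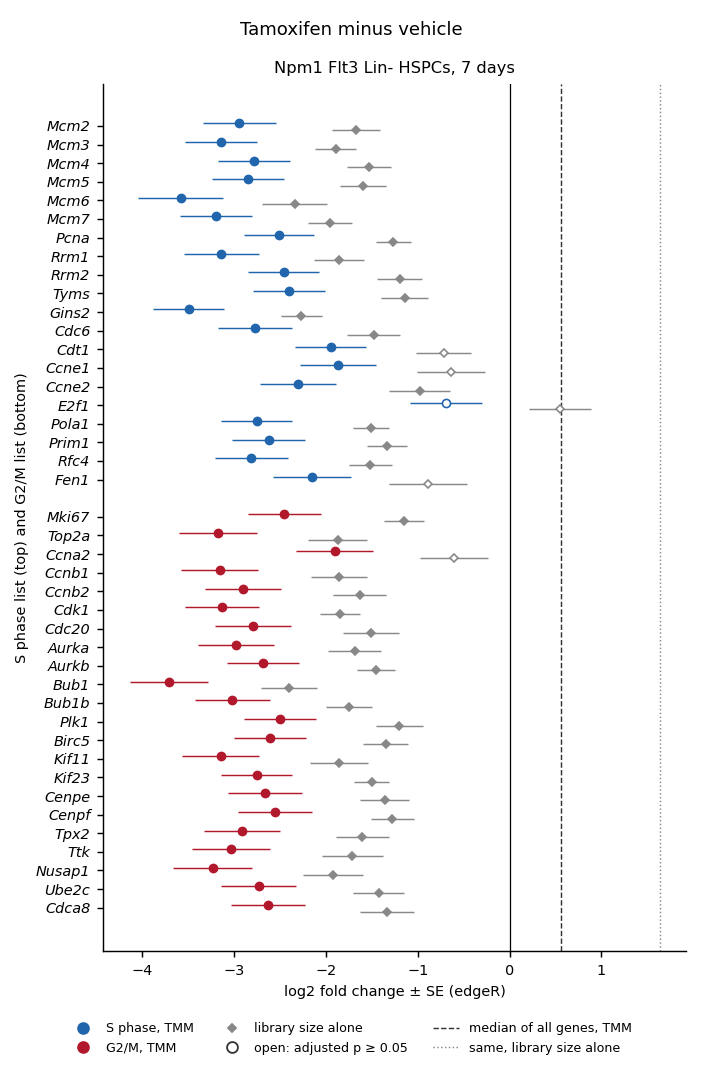
Log2 change of each member in TAM against vehicle Npm1 Flt3 Lin- HSPCs (x axis, with SE bars), by edgeR with TMM scaling (coloured circles) and with scaling by library size alone (grey diamonds); filled points passed an adjusted p of 0.05, and vertical lines mark the median of all genes on each scale. All 42 points lie left of 0 with TMM scaling; with library size alone the points shift right by about the same amount and E2f1 lies right of 0.

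The size of these falls depends on how the libraries are scaled. TMM factors, which correct for a few genes taking a large share of the reads, were 1.3226 to 1.6727 in TAM and 0.4759 to 0.8653 in vehicle libraries. With scaling by library size alone, an alternative added after the data were seen, the median of all genes moved from 0.56 to 1.64, and 8.33% of all genes fell. On that scale 16 of 20 S phase members fell (median -1.49) and 21 of 22 G2/M members (median -1.56). Those no longer past the threshold were Cdt1, Ccne1 (log2 -0.64 ± 0.37, adjusted p = 0.154), Fen1 and Ccna2 (log2 -0.61 ± 0.37, adjusted p = 0.169), and E2f1 changed sign (log2 0.55 ± 0.34, adjusted p = 0.178). The 19 and 22 calls were the same counts by DESeq2, with each of the 6 libraries left out in turn, and with libraries paired by their title number.

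Genes of the same processes that are not members, in lists chosen with earlier results of these data known, moved with them. Of 28 other replication genes, such as Cdc45, the polymerase subunits and Tk1, all 28 fell (median -2.48), and of 30 other G2/M genes, such as condensins and kinesins, all 30 fell (median -2.71). Of 31 other cell cycle regulators tested, 16 fell and 1, the antiproliferative factor Btg2, rose (log2 1.52 ± 0.37). Cdk4, the G1 kinase that pairs with D cyclins, went from 775, 943 and 894 to 285, 178 and 245 CPM (log2 -3.16 ± 0.40, adjusted p = 7.69e-07 by edgeR). Myc, a growth regulator, went from 206, 329 and 309 to 125, 75.3 and 70.9 CPM (log2 -2.94 ± 0.41), and Tfdp1, the dimer partner of E2F factors, from 138, 185 and 181 to 68.6, 45.3 and 72.0 CPM (log2 -2.72 ± 0.40). Again no library of 1 group reached the other.

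Cell type markers moved with treatment as well. The summed CPM of the 6 dendritic cell markers was 16525 to 21561 in TAM and 1346 to 2943 in vehicle libraries, that of the 6 macrophage markers 779.9 to 1274 against 75.3 to 100.3, and that of the 6 mature neutrophil markers 1243 to 2172 against 183 to 212. Summed erythroid markers went from 1.10 to 7.52 to 534 to 705 and B and plasma cell markers from 67.1 to 94.2 to 216 to 851. The GMP markers were lower in TAM, 238 to 711 against 5143 to 6236, while LSK markers overlapped (298 to 741 and 427 to 456). No marker of any list was at 0 in a TAM library. The part of this change in cell makeup in the fall of the members was not tested.

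The second contrast in which many members moved was time. Flt3 cells at 2 weeks were compared with the mean of the 4, 6 and 8 week groups, within each cell type. In GMPs 12 of 19 S phase members tested were lower at 2 weeks, where 8.63% of the 9122 genes tested were lower and 15.8% higher, and the other 7 had negative estimates; the median log2 difference was -0.52 against 0.02 for all genes. Only 1 of 22 G2/M members was lower and 2 were higher (median -0.08). In LSK cells 9 of 19 S phase members were lower, where 6.07% of 9892 genes were lower and 11% higher (median -0.34, all genes -0.01), and of 22 G2/M members none was lower and 1 was higher (median -0.07; 5 had an unadjusted p under 0.05, and DESeq2 also called none lower). All 6 genes of the MCM ring, with Rrm1, Cdc6 and Cdt1, were lower in both cell types. The lowest S phase estimate in GMPs was that of the cyclin gene Ccne2 (log2 -1.18 ± 0.40, adjusted p = 0.0258 by edgeR), named after its value was seen, and in LSK cells that of Mcm4. The difference between the 2 sets within a cell type was not tested.

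In GMPs, Mcm2 stood at 181, 139 and 204 CPM at 2 weeks, against a lowest, median and highest of 334, 396 and 462 in the 8 later libraries (log2 -0.78 ± 0.15, adjusted p = 6.8e-05; edgeR here and below). Mcm4 stood at 139, 89.7 and 132 CPM, against 233, 264 and 326 (log2 -0.73 ± 0.15, adjusted p = 0.000142). Mcm7 stood at 305, 226 and 345 CPM, against 512, 593 and 676 (log2 -0.62 ± 0.16). Each 2-week library lay below every later library, and replicate 2 was the lowest. Mcm3 was similar, at 200.0, 139 and 210.3 against 317, 356 and 389.8 CPM (log2 -0.56 ± 0.15). In LSK cells the order was the same: Mcm4 stood at 190.0, 157 and 112 CPM at 2 weeks against 245, 325 and 363 in the 9 later libraries (log2 -0.77 ± 0.13, adjusted p = 0.000139). Mcm3 stood at 248, 176 and 171.9 against 320.0, 379 and 418 (log2 -0.62 ± 0.12), and Mcm6 at 595, 561 and 549 against 763, 1096 and 1135 (log2 -0.55 ± 0.11). Mcm2 differed by -0.64 ± 0.13, from 215, 267 and 173.8 CPM to 325, 440.2 and 462. For none of these MCM genes did a 2-week library reach a later one.

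With TMM scaling, 3 G2/M members passed in GMPs and 1 in LSK cells. Ube2c, the ubiquitin-conjugating enzyme that works with the anaphase-promoting complex, was higher at 2 weeks in both cell types (log2 0.60 ± 0.15, adjusted p = 0.0016 in GMPs; 0.58 ± 0.13, adjusted p = 0.00182 in LSK cells). Its CPM overlapped, at 352, 271 and 359 against 208, 270.4 and 417 in GMPs and 298, 292 and 333 against 207, 256 and 362 in LSK cells. Kif23, a kinesin of the cytokinetic midzone, was higher in GMPs (log2 0.48 ± 0.17, adjusted p = 0.0321), at 68.4, 84.9 and 99.9 against 59.4, 76.0 and 99.7 CPM. Ttk, a spindle checkpoint kinase, was lower in GMPs, at 14.9, 20.8 and 25.1 against 35.2, 45.5 and 54.5 CPM (log2 -0.78 ± 0.24, adjusted p = 0.0139), with no overlap. Aurora A kinase, encoded by Aurka, did not pass (-0.41 ± 0.17, adjusted p = 0.0654), nor in LSK cells did Bub1 (-0.65 ± 0.24, adjusted p = 0.0683), the checkpoint kinase gene Bub1b (-0.37 ± 0.15, adjusted p = 0.0853) or Birc5 (0.27 ± 0.11, adjusted p = 0.0815).

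**Figure D4:**
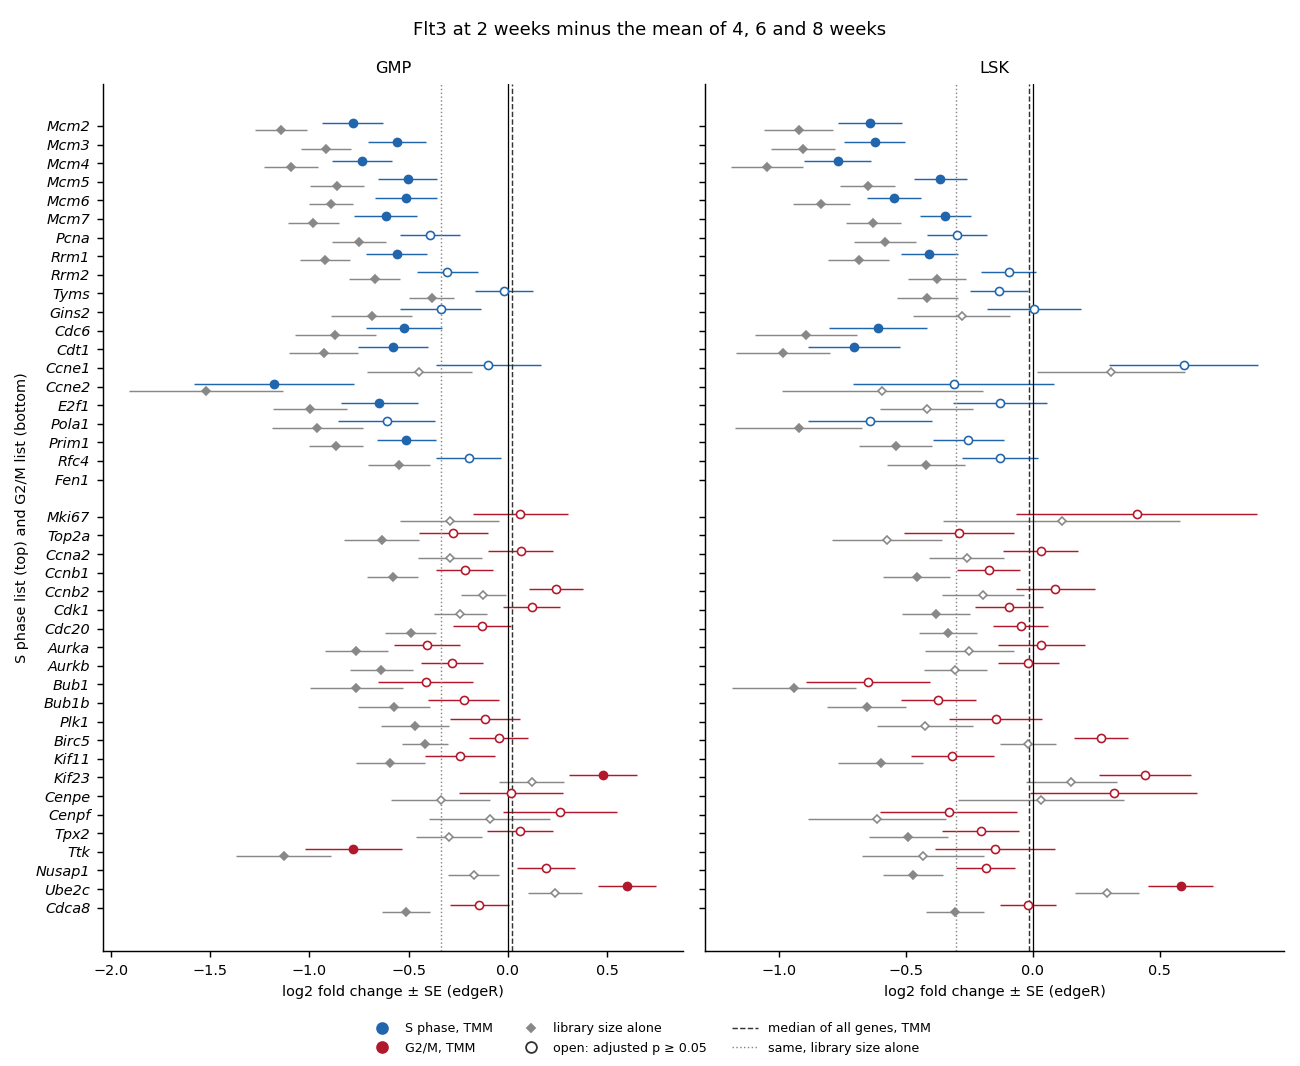
Log2 difference of each member between 2-week Flt3 cells and the mean of the 4, 6 and 8 week groups, in GMPs and in LSK cells (SE bars, edgeR; coloured circles for TMM scaling and grey diamonds for library size alone; filled points passed an adjusted p of 0.05). With TMM scaling 19 of 19 S phase members lie left of 0 in GMPs and 17 of 19 in LSK cells (medians -0.52 and -0.34), and G2/M members lie around 0 (medians -0.08 and -0.07).

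Scaling bears on the G2/M result and less on the S phase result. TMM factors were 0.7243 to 0.7976 in 2-week GMPs and 0.8008 to 0.8776 in 2-week LSK cells, against 0.9637 to 1.019 and 1.0041 to 1.0557 later. With library size alone the median of all genes moved to -0.34 in GMPs and -0.30 in LSK cells, and 32.1% and 22.9% of all genes were lower. On that scale 18 of 19 S phase members (median -0.89) and 12 of 22 G2/M members (median -0.44) were lower in GMPs, and 15 and 9 in LSK cells (medians -0.63 and -0.36), and no G2/M member was higher. A change of scale shifts all genes by about the same amount, so medians relative to all genes hardly change by construction. On either scale the S phase medians were lower than that of all genes, and the G2/M medians were close to it. Without 2-week GMP replicate 2 the S phase count in GMPs was 7, and without 2-week LSK replicate 3 that in LSK cells was 5. The G2/M count in LSK cells was 2 without 2-week LSK replicate 3 (1 higher, 1 lower) and 2 without 4-week LSK replicate 2 (both higher).

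Other genes of these processes were counted in the same way. Of 27 other replication genes tested, 11 were lower at 2 weeks in GMPs (median -0.47) and 5 in LSK cells (median -0.16), and every one that passed was lower, whereas of 29 other G2/M genes 1 passed in GMPs (Pttg1, higher), and 2 were higher and 2 lower in LSK cells. Among 28 other regulators tested in GMPs, 6 were higher and 10 lower; among 30 in LSK cells, 3 and 8. Btg2 stood at 152, 248 and 315 CPM in 2-week GMPs against 24.5, 33.8 and 46.9 later. With TMM scaling this was an 8.71-fold difference (log2 3.12 ± 0.17, adjusted p = 6.36e-21 by edgeR). In LSK cells Btg2 stood at 140.4, 171.97 and 159 against 19.3, 45.9 and 108 (log2 2.08 ± 0.21). Cdkn1a, the kinase inhibitor p21, was lower in 2-week GMPs, at 23.6, 16.0 and 22.1 against 57.8, 69.3 and 85.7 CPM (log2 -1.32 ± 0.22). Skp2, the ubiquitin ligase subunit that targets p27, was lower as well, at 11.5, 6.41 and 13.7 against 33.4, 41.8 and 57.7 CPM (log2 -1.53 ± 0.27). In LSK cells Myc was lower, at 480.4, 501 and 447 against 642, 1029 and 1154 CPM (log2 -0.67 ± 0.10), and cyclin D1 higher, with Ccnd1 at 26.6, 12.3 and 20.1 against 0, 3.23 and 13.0 CPM (log2 2.78 ± 0.49). The Ccnd1 ranges overlapped only where 8-week LSK replicate 3 reached above the lowest 2-week library.

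Markers of other cell types also differed at 2 weeks. The summed CPM of the 6 basophil and mast cell markers was 57177 to 70699 in 2-week GMPs and 289 to 1015 later, and that of dendritic cell markers 16432 to 23614 and 709 to 3329. In LSK cells B and plasma cell markers summed to 5558 to 15370.0 at 2 weeks and 4.56 to 30.3 later, and dendritic cell markers to 10133 to 17970.0 and 1308 to 10177. GMP markers in GMPs overlapped, 14684 to 24593 against 15998 to 31298. The lowest 2-week sum of LSK markers was 202 in GMPs and 712 in LSK cells, against 757 to 972 and 969 to 1398 later. In LSK cells the lowest 2-week sum of GMP markers was 1608, against 2893 to 5339.7 later. The highest 2-week sum of basophil and mast cell markers in LSK cells was 2480, against 129 to 243 later. The part of these markers in the S phase difference was not tested. No WT library was taken at 2 weeks, so time and the Flt3 mutation cannot be told apart here.

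After 4 weeks no change in members was detected. Between the mean of 6 and 8 weeks and 4 weeks, 0 of 19 S phase and 0 of 22 G2/M members passed edgeR's test in GMPs, where 0.132% of all genes did, and 0 and 0 in LSK cells, where 0.0101% did. At an unadjusted p under 0.05 there were 1 and 0 members in GMPs and 1 and 2 in LSK cells, and DESeq2 called none. Rfc4, a subunit of the clamp loader, had the smallest p in GMPs: it stood at 142, 163 and 161 CPM at 4 weeks, 93.7, 119.7 and 121 at 6 and 86.7 and 95.1 at 8 weeks (log2 -0.65 ± 0.18, adjusted p = 0.145). Its later libraries all lay below the 4-week ones. Of the G2/M members in GMPs, the smallest p belonged to the mitotic kinase gene Plk1 (log2 -0.35 ± 0.19, adjusted p = 0.705). In LSK cells Mcm7 (log2 -0.25 ± 0.10, adjusted p = 0.979) and the spindle motor gene Kif11 (log2 0.44 ± 0.16, adjusted p = 0.979) came first. The remaining named members had adjusted p-values of 0.716 to 0.87 in GMPs (Ccne2, Cdc6, Rrm2, Cdc20, Top2a and Ube2c) and of 0.979 in LSK cells (Mcm6, Prim1, Ccne2, Cdca8, Bub1b and Ccna2).

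In both sets a larger share of members than of all genes was lower in Npm1 Flt3 than in Dnmt3a Flt3 cells. In GMPs 9 of 20 S phase members were lower and 2 higher in Npm1 Flt3, where 8.22% of the 17200 genes tested were lower and 12.5% higher; the median log2 difference was -0.74 against 0.06 for all genes. Of 22 G2/M members 10 were lower and 2 higher (median -0.56). In LSK cells 5 S phase members were lower and 3 higher, where 3.76% of 19470 genes were lower and 7.8% higher (median -0.51, all genes 0.00), and 5 G2/M members were lower and 1 higher (median -0.59). The share of members called higher was near or below that of all genes, except for S phase members in LSK cells (3 of 20). Mcm4, Mcm6, Rrm1, Ccnb1, Bub1, Bub1b and Kif11 were lower in both cell types, E2f1, Ccne1 and Ccna2 were higher in both, and Cdt1 was higher in LSK cells. The time from induction and the disease state of these mice are not given. Npm1 Flt3 and Dnmt3a Flt3 libraries also carry different series of sample codes. Genotype, stage and series of codes therefore cannot be told apart.

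In GMPs, Mcm2 stood at 325, 512, 388 and 396 CPM in Npm1 Flt3 and 793 and 860.2 in Dnmt3a Flt3 libraries (log2 -1.07 ± 0.19, adjusted p = 0.00889; edgeR here and below). Rrm1 stood at 264, 425, 285 and 357 against 716 and 655 CPM (log2 -1.08 ± 0.21). Cdc6, which loads MCM rings at origins, stood at 65.6, 130.2, 93.9 and 129 against 245 and 221 CPM (log2 -1.19 ± 0.27). All 4 Npm1 Flt3 libraries lay below both Dnmt3a Flt3 libraries for these genes. E2f1 was the reverse, at 29.0, 30.7, 46.8 and 33.6 against 10.4 and 12.2 CPM (log2 1.59 ± 0.29, adjusted p = 0.00902). Among G2/M members, Ttk stood at 42.4, 41.4, 34.3 and 28.1 against 96.1 and 100.5 CPM (log2 -1.46 ± 0.22, adjusted p = 0.00464), and Bub1 at 47.3, 77.7, 57.5 and 59.9 against 139 and 148 CPM (log2 -1.28 ± 0.21). Mki67 was higher in Npm1 Flt3, at 421, 420.0, 381 and 445 against 168 and 193 CPM (log2 1.17 ± 0.15, adjusted p = 0.00276), and so was Ccna2, at 34.8, 22.7, 45.5 and 36.0 against 10.1 and 10.6 CPM (log2 1.70 ± 0.32). Ki-67 and the checkpoint kinases, all G2/M genes, thus moved in opposite directions in the same libraries.

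In LSK cells, Ccne2, the second cyclin E, stood at 23.0, 42.8, 21.0 and 19.4 CPM in Npm1 Flt3 and 79.7 and 79.7 in Dnmt3a Flt3 libraries (log2 -1.57 ± 0.33, adjusted p = 0.0151), while Ccne1 was higher (log2 2.27 ± 0.56). Pola1, the catalytic subunit of polymerase alpha, stood at 108, 126, 103 and 84.6 against 228 and 209 CPM (log2 -1.03 ± 0.22), and Rrm1 at 303, 588, 469 and 392 against 1073 and 977 CPM (log2 -1.18 ± 0.29). The 2 cyclin E genes therefore differed in opposite directions. E2f1 was higher, at 30.5, 38.4, 35.9 and 32.7 against 9.15 and 9.23 CPM (log2 1.95 ± 0.35, adjusted p = 0.00837). Among G2/M members, Kif11, the motor that pushes spindle poles apart, stood at 101, 155.99, 134 and 70.7 against 314 and 339.5 CPM (log2 -1.47 ± 0.29, adjusted p = 0.0125). Bub1 stood at 60.2, 68.7, 78.8 and 69.1 against 169.4 and 152 CPM (log2 -1.16 ± 0.26). Bub1b, the partner of Bub1 at the checkpoint, stood at 131, 235, 232 and 148 against 498 and 434 CPM (log2 -1.27 ± 0.30). Ccna2 was higher in Npm1 Flt3, at 89.8, 80.5, 33.4 and 56.8 against 20.4 and 17.1 CPM (log2 1.80 ± 0.38). No Npm1 Flt3 library overlapped a Dnmt3a Flt3 library for any of these genes.

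**Figure D5:**
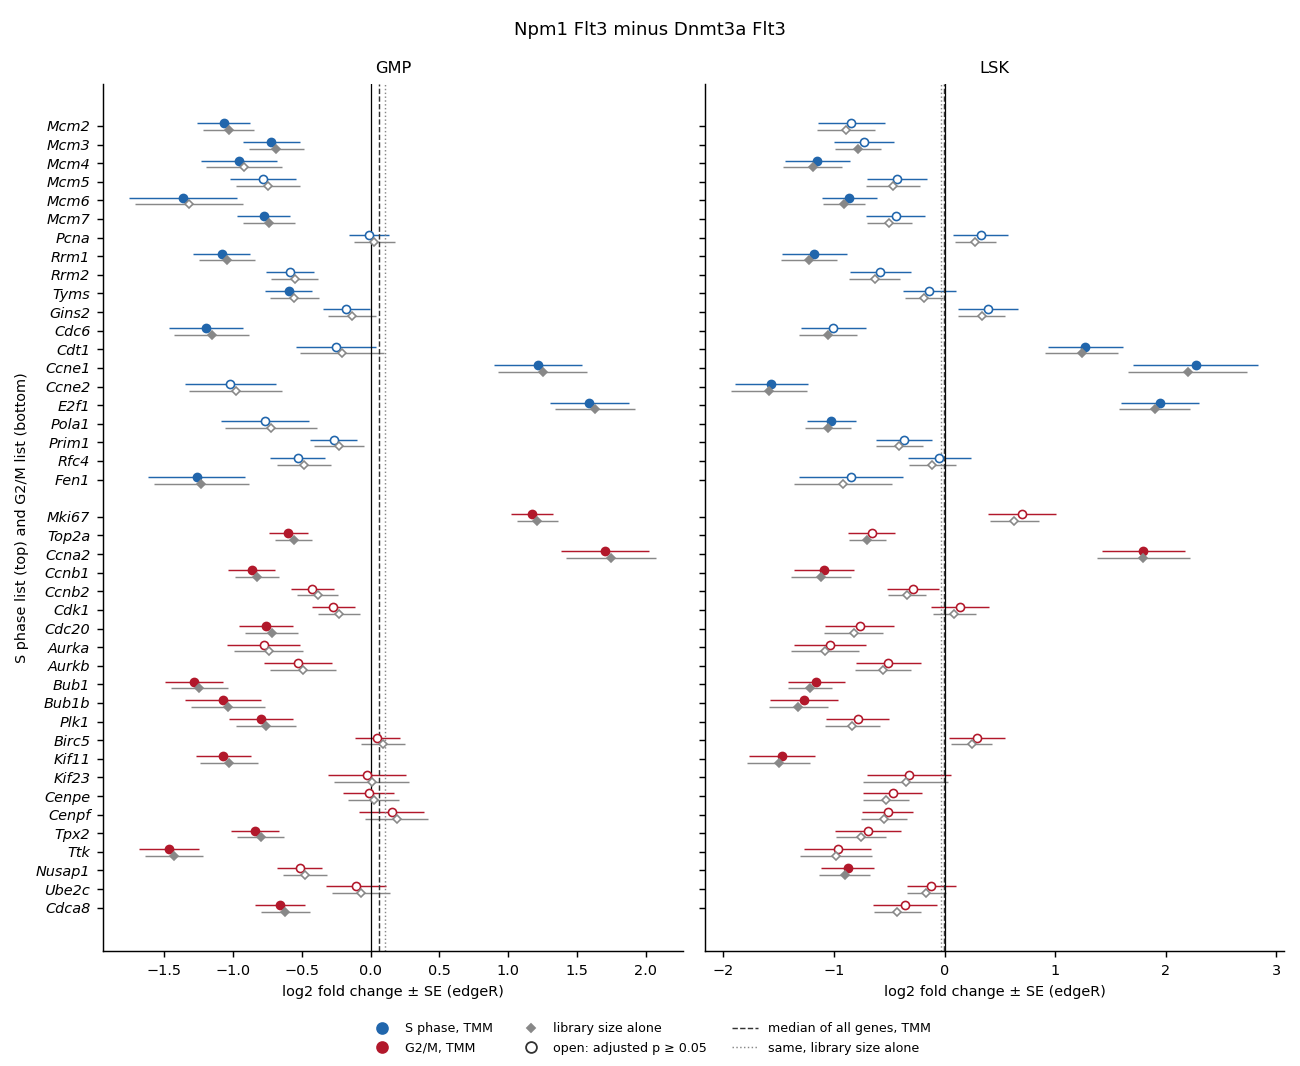
Log2 difference of each member between Npm1 Flt3 and Dnmt3a Flt3 cells in GMPs and in LSK cells (SE bars, edgeR, 4 against 2 libraries; coloured circles for TMM scaling and grey diamonds for library size alone; filled points passed an adjusted p of 0.05). Most points lie left of 0 (medians -0.74 and -0.56 in GMPs), with E2f1, Ccne1 and Ccna2 to the right in both cell types.

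These counts rest on 2 Dnmt3a Flt3 libraries per cell type. Leaving out Dnmt3a Flt3 GMP replicate 1 gave 0 S phase and 4 G2/M members past the threshold in GMPs, and leaving out replicate 3 gave 0 and 2. The S phase count was 7, 6 and 6 without Npm1 Flt3 GMP replicates 1, 3 and 4, and the G2/M count 7 without replicate 4. In LSK cells it was 0 and 0 without Dnmt3a Flt3 LSK replicate 2, and 1 and 0 without replicate 3. Without Npm1 Flt3 LSK replicates 1, 2 and 4 the S phase count was 5, 5 and 4, and without replicate 2 the G2/M count was 2. DESeq2 and a filter of 5 CPM each gave 12 G2/M members in LSK cells, and keeping the 2 libraries with conflicting codes gave 10.

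Of 28 other replication genes, 11 passed in GMPs, each lower in Npm1 Flt3, and 2 were lower and 1 higher in LSK cells. Of 30 other G2/M genes 13 passed in GMPs, each lower, and 9 were lower and 1 higher in LSK cells. Among 32 other regulators, 9 were higher and 4 lower in GMPs, and 8 higher and 3 lower in LSK cells. Btg2 stood at 579.5, 461, 349.7 and 505 CPM in Npm1 Flt3 and 46.9 and 62.5 in Dnmt3a Flt3 GMPs (log2 3.08 ± 0.27, adjusted p = 0.000651 by edgeR), and at 292, 347, 353 and 112 against 32.0 and 33.3 in LSK cells (log2 3.10 ± 0.45). Ccnd1 stood at 40.0, 35.6, 32.7 and 8.81 against 0.362 and 0.492 CPM in GMPs and at 26.0, 14.2, 35.2 and 4.02 against 0.576 and 0.671 in LSK cells (log2 6.06 ± 0.78 and 5.01 ± 0.91), where the Dnmt3a Flt3 levels are too low for the fold to be precise. E2f2, another activating E2F, was higher in Npm1 Flt3 GMPs, at 23.4, 14.9, 17.9 and 17.5 against 2.77 and 3.45 CPM (log2 2.53 ± 0.35). Fzr1, which holds the anaphase-promoting complex active in G1, was higher in Npm1 Flt3 LSK cells, at 113, 61.8, 51.8 and 61.8 against 16.5 and 16.1 CPM (log2 2.15 ± 0.34).

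Markers differed between the same groups. Dendritic cell markers summed to 12969 to 28535 CPM in Npm1 Flt3 and 86.8 to 96.8 in Dnmt3a Flt3 GMPs, and to 4125 to 17468 and 417 to 466 in LSK cells. In GMPs mature neutrophil markers summed to 243 to 977 against 8.90 to 11.4, basophil and mast cell markers to 88.1 to 185 against 1477 to 1742, and GMP markers to 18478 to 49263 against 59512 to 61626. LSK markers in LSK cells summed to 871 to 1230.2 against 2168 to 2229. None of these ranges overlapped, and their part in the members' differences was not tested.

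The WT cells give the baseline between stem and progenitor populations. In WT LSK cells relative to WT GMPs, 5 of 19 S phase members passed the test, each lower, where 13.5% of the 10287 genes tested were lower and 16.1% higher (median -0.35, all genes 0.12). Of 22 G2/M members 2 were higher and 3 lower (median -0.15). The summed CPM of G2/M members, not scaled by TMM, was nevertheless higher in every WT LSK than in every WT GMP library. The share of S phase members called lower (5 of 19) exceeded the background share, and the G2/M counts were near it. Rrm2 stood at 332, 373 and 353 CPM in LSK cells and 413, 537 and 447 in GMPs (log2 -0.74 ± 0.16, adjusted p = 0.000306 by edgeR), with no overlap. Gins2 stood at 69.5, 66.8 and 51.5 against 109, 70.7 and 87.9 CPM (log2 -0.85 ± 0.23), and Rfc4 at 126, 129 and 106 against 169.5, 130.4 and 107 CPM (log2 -0.52 ± 0.18). Mcm5 and Rfc4 overlapped in CPM; Mcm5 held 308, 377 and 324 against 371, 353 and 323 (log2 -0.40 ± 0.15).

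Of the G2/M members, Cdk1 was lower in WT LSK cells, at 191, 225 and 171 against 221, 241 and 229 CPM (log2 -0.59 ± 0.16, adjusted p = 0.0045), and so was Birc5, at 359, 316 and 361 against 340.0, 401 and 359 CPM (log2 -0.42 ± 0.16). The CPM of both overlapped between the cell types. Mki67 was higher, at 147, 56.9 and 32.6 against 23.6, 21.9 and 18.8 CPM (log2 1.58 ± 0.52, adjusted p = 0.0247), and so was Cenpe, the motor that aligns chromosomes, at 38.3, 35.9 and 16.5 against 7.88, 11.4 and 14.8 CPM (log2 1.02 ± 0.37). The LSK libraries of these last 2 genes lay above all GMP libraries but were spread widely. Cdkn1c, the inhibitor p57 that is known for holding stem cells in quiescence, stood at 25.6, 12.4 and 22.3 CPM in LSK cells and 0, 0 and 2.01 in GMPs (log2 4.48 ± 0.82, a fold that rests on near-zero GMP counts). Tfdp1 was lower in LSK cells (log2 -0.53 ± 0.15) and the S phase kinase gene Cdk2 higher (log2 0.45 ± 0.17). Of 27 other replication genes 6 were lower and 2 higher, and of 29 other G2/M genes 6 were lower and 1 higher.

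This contrast turned on scaling. TMM factors were 0.8125 to 0.8626 in WT GMPs and 1.0664 to 1.0745 in WT LSK cells. With library size alone the median of all genes was 0.46 and 31.5% of genes were higher and 6.36% lower in LSK cells; 3 S phase members (Mcm4, Mcm6 and Pola1) were then higher and 1 (Rrm2) lower, and 7 G2/M members passed, each higher. Rrm2 was the only S phase member lower on both scales, and only Mki67 and Cenpe were called higher on both. The S phase count was 2 to 5 and the G2/M count 1 to 4 when single libraries were left out. The S phase count was 2 without WT GMP replicate 1 or WT LSK replicate 3, and 3 without WT GMP replicate 2 or WT LSK replicate 1. The G2/M count was 1 without WT GMP replicate 2, 2 without WT GMP replicate 1 or WT LSK replicate 1, and 3 without WT GMP replicate 3 or WT LSK replicate 2. Without WT LSK replicate 1, no G2/M member was higher. With no filter on low counts 3 S phase members were lower.

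Against this baseline few members passed the threshold between 4-week Flt3 and WT cells, where genotype and series of sample codes cannot be told apart. In GMPs 0 of 19 S phase members passed edgeR's test (1 had an unadjusted p under 0.05, and DESeq2 called 0), and 2 of 22 G2/M members were higher, where 7.18% of all genes were higher (median 0.01 for S phase, 0.29 for G2/M and 0.04 for all genes). Kif11 stood at 142, 118 and 88.3 CPM in Flt3 and 61.1, 73.2 and 53.0 in WT GMPs (log2 0.67 ± 0.22, adjusted p = 0.0316), and Top2a at 180.0, 183 and 209 against 138, 91.1 and 89.9 CPM (log2 0.66 ± 0.22, adjusted p = 0.0381). Neither gene overlapped between the groups. Cenpf, a kinetochore protein gene, and Kif23 did not pass (log2 1.10 ± 0.39, adjusted p = 0.0515, and 0.64 ± 0.23, adjusted p = 0.0538), although the Flt3 libraries of Kif23 (59.4, 78.3 and 72.5 CPM) lay above those of WT (37.4, 41.3 and 38.9). Of the S phase members Pola1 (log2 0.62 ± 0.30, adjusted p = 0.169) and Pcna (log2 -0.36 ± 0.18, adjusted p = 0.182) had the smallest p, followed by Gins2 (0.188) and Cdt1 (0.46). Cdkn1a was higher in Flt3 GMPs, at 66.4, 72.2 and 57.8 against 15.8, 14.9 and 17.4 CPM (log2 1.82 ± 0.28, adjusted p = 3.01e-06), and so was Cdkn2c, the inhibitor p18, at 59.4, 95.1 and 88.3 against 32.5, 39.3 and 40.2 CPM (log2 0.92 ± 0.24). Of 27 other replication genes 1 was higher and 1 lower, and of 29 other G2/M genes 3 were higher and 2 lower.

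The G2/M count in GMPs moved with nearly every choice. It was 0 without WT GMP replicate 3 or 4-week Flt3 GMP replicate 1, and 1 without 4-week Flt3 GMP replicate 2 or 3 or WT GMP replicate 2. With library size alone 9 G2/M and 2 S phase members were higher, where 14.2% of all genes were and the median of all genes was 0.25. Setting the mean of all 4 Flt3 groups against WT gave 6 G2/M members higher (Mki67, Top2a, Kif23, Cenpe, Cenpf and Nusap1, where 13.1% of genes were higher) and 1 lower (Cdk1), with 3 S phase members lower (Pcna, Gins2 and Rfc4, where 13.2% of genes were lower). That mean includes the 2-week libraries described above.

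In LSK cells 2 of 19 S phase members and 1 of 22 G2/M members were higher in 4-week Flt3 than in WT cells, where 4.54% of all genes were (medians 0.34 and 0.17, all genes -0.01). Mcm5 stood at 468, 446 and 413 against 308, 377 and 324 CPM (log2 0.44 ± 0.12, adjusted p = 0.0201), and Rrm2 at 506, 435 and 427 against 332, 373 and 353 CPM (log2 0.41 ± 0.13, adjusted p = 0.0399). Bub1b stood at 114, 136 and 156.1 against 81.8, 89.0 and 97.2 CPM (log2 0.64 ± 0.17, adjusted p = 0.0111). None of the 3 overlapped. Mcm6 (0.37 ± 0.12, adjusted p = 0.053), Gins2 (0.57 ± 0.21, adjusted p = 0.0922), Bub1 (0.77 ± 0.26, adjusted p = 0.0599) and Birc5 (0.38 ± 0.13, adjusted p = 0.06) had positive estimates and did not pass, and Kif11 had a negative one (-0.42 ± 0.18, adjusted p = 0.16). Cdkn1a was 7.69-fold higher, at 104, 139 and 106 against 23.2, 12.4 and 8.45 CPM (log2 2.94 ± 0.26, adjusted p = 7.07e-09). Cdkn1b, the inhibitor p27, was lower, at 6.01, 6.55 and 5.61 against 27.4, 13.6 and 20.7 CPM (log2 -1.78 ± 0.47), and so was E2f8, a repressing E2F, at 32.7, 33.7 and 29.0 against 61.1, 59.3 and 60.3 CPM (log2 -0.90 ± 0.25). Of 27 other replication genes 1 passed (Pold1, higher), and of 29 other G2/M genes 1 (Cenpa, lower). The S phase count was 0 without 4-week Flt3 LSK replicate 1 or WT LSK replicate 1 or 3, 1 without 4-week Flt3 LSK replicate 2 or WT LSK replicate 2, and 0 in a fit of all 30 libraries or with the mean of the 4 Flt3 groups. The G2/M count was 0 without WT LSK replicate 1; with the mean of the 4 Flt3 groups it was 3 (Birc5, Kif23 and Ube2c, where 6.89% of genes were higher).

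Markers of other cell types differed between WT and 4-week Flt3 cells as well. In GMPs the summed CPM of erythroid markers was 125 to 183 against 1.75 to 9.46, in WT against Flt3 cells, that of mature neutrophil markers 313 to 702 against 9.63 to 31.4, of macrophage markers 76.7 to 128 against 22.1 to 31.4 and of dendritic cell markers 81.6 to 108 against 1744 to 3025. GMP markers were at 45216 to 55081 against 25892 to 31298 and LSK markers at 586 to 686 against 772 to 924 in the same cells. In LSK cells erythroid markers were at 470.2 to 673 against 2.67 to 6.93, macrophage markers at 263 to 1631 against 24.3 to 55.4, B and plasma cell markers at 138 to 286 against 4.68 to 10.6, basophil and mast cell markers at 541 to 891 against 146 to 170.4, mature neutrophil markers at 28.4 to 94.1 against 9.57 to 15.0 and dendritic cell markers at 265 to 425 against 1308 to 4736, with LSK markers at 1587 to 1748 against 1207 to 1372. None of these ranges overlapped, whereas basophil and mast cell and B and plasma cell markers overlapped in GMPs and GMP markers in LSK cells. The part of these markers in the members' differences was not tested.

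The difference of the Flt3 effect between the cell types passed the threshold for 0 of 19 S phase and 1 of 22 G2/M members, near the share of all genes. For Kif11 the effect in LSK cells minus that in GMPs was -1.09 ± 0.29 on the log2 scale (adjusted p = 0.019 by edgeR, where 2.06% of all genes were lower): in WT it stood at 61.1, 73.2 and 53.0 CPM in GMPs and 91.2, 122 and 97.2 in LSK cells, and in 4-week Flt3 cells at 142, 118 and 88.3 and 78.8, 58.0 and 84.2. The order of the cell types was thus reversed for this motor gene. Its adjusted p was 0.0615 without WT GMP replicate 3, 0.072 without 4-week Flt3 GMP replicate 1, 0.0646 without 4-week Flt3 LSK replicate 2 and 0.0579 without WT LSK replicate 2, where the G2/M count was 0. Of the S phase members 0 of 19 passed (3 at an unadjusted p under 0.05; DESeq2 called 1), and Gins2 came closest (1.04 ± 0.33, adjusted p = 0.0588). With libraries of both cell types paired by animal number, Gins2 (adjusted p = 0.0277) and Mki67 (log2 -1.43 ± 0.38, adjusted p = 0.0148) passed too, giving 1 S phase and 2 G2/M members. The S phase count was also 1 without WT GMP replicate 2 or 4-week Flt3 LSK replicate 2. The remaining named members, Pcna, Prim1 (the small primase subunit), Rrm2, Cenpe, Mki67 and Cdk1, had adjusted p-values of 0.147 to 0.276.

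Within mutant genotypes LSK cells and GMPs differed past the threshold in few members. In 4-week Flt3 cells 0 of 19 S phase members passed edgeR's test (0 at an unadjusted p under 0.05; DESeq2 called 0), and Kif11 alone of 22 G2/M members was lower in LSK cells (log2 -0.73 ± 0.20, adjusted p = 0.0219), where 2.78% of all genes were lower. Kif11 was not called without 4-week Flt3 GMP replicate 1 or 2 or 4-week Flt3 LSK replicate 2, or with library size alone. The S phase members with the smallest p were Rrm2 (log2 -0.30 ± 0.16, adjusted p = 0.36), Prim1 (0.30 ± 0.17), Mcm4 (0.29 ± 0.17) and Mcm6 (0.24 ± 0.15), and the next G2/M members were Ube2c (-0.41 ± 0.18), Plk1 (-0.45 ± 0.21) and Birc5 (-0.33 ± 0.16). In Npm1 Flt3 cells 0 of 20 and 0 of 22 passed (5 and 4 at an unadjusted p under 0.05), where 4.62% of all genes did. DESeq2 called 3 S phase members higher in LSK cells (Pcna, Tyms and Gins2) and 0 G2/M members. Pcna stood at 309, 342, 298 and 376 CPM in Npm1 Flt3 LSK cells and 183, 221, 222 and 208 in GMPs (log2 0.50 ± 0.15, adjusted p = 0.0868), with no overlap, and Gins2 (log2 0.56 ± 0.18, adjusted p = 0.106), Tyms, encoding thymidylate synthase (0.48 ± 0.16, adjusted p = 0.118), and Rfc4 (0.58 ± 0.20, adjusted p = 0.132) lay in the same direction. Of G2/M members, Cdk1 (log2 0.45 ± 0.17, adjusted p = 0.174), Ccna2, Birc5 and Ube2c came first. With library size alone 4 S phase and 2 G2/M members were higher, where 3.72% of all genes were. Without Npm1 Flt3 LSK replicate 1 the S phase count was 1, and without replicate 3 the G2/M count was 1. Cdkn1a was higher in LSK cells (log2 1.08 ± 0.28, adjusted p = 0.0385), at 77.6, 142, 149 and 179 against 43.0, 71.3, 52.7 and 68.5 CPM.

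In Dnmt3a Flt3 cells, with 2 libraries per group, Cdt1 was the only member past the threshold: it stood at 25.5 and 51.6 CPM in LSK cells and 114 and 72.9 in GMPs (log2 -1.60 ± 0.37, adjusted p = 0.0396 by edgeR), where 1.29% of all genes were lower. It was not called when any 1 of Dnmt3a Flt3 LSK replicate 2 or GMP replicates 1 and 3 was left out, with median-ratio size factors, with library size alone, with the 2 libraries of conflicting codes, or with libraries paired by animal number (log2 -0.84 ± 0.41, adjusted p = 1), a fit in which only 1 Dnmt3a Flt3 animal had both cell types. No G2/M member passed (0 of 22; 2 at an unadjusted p under 0.05; DESeq2 called 0), with Cenpf (0.70 ± 0.25, adjusted p = 0.283) and Nusap1 (0.56 ± 0.24, adjusted p = 0.432) first. Among S phase members Ccne2, E2f1 and Prim1 followed (adjusted p 0.537 to 0.728).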

How the data were processed

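RNA from sorted LSK cells, GMPs and Lin- HSPCs was sequenced in 50 libraries. The deposited tables, of 30 and 20 libraries, hold whole-number counts for each gene symbol, unnormalized, made by the authors with STAR, featureCounts and mm10 per the submitters' processing notes; versions, gene annotation and strand setting are not given in the sources used here. Libraries came from a Takara HT-Seq paired-end or a Smart Seq V4 3′ DE single-end kit per the labels, and end counting reads a transcript differently from whole-transcript counting. Samples were grouped by their titles. CPM is the count divided by the library total, times 1000000, without length correction, so levels are compared between libraries and not between genes.

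Differences were tested with edgeR 4.0.16 in R 4.3.3 (limma 3.58.1; robust quasi-likelihood fit, filterByExpr, TMM) in 14 comparisons, with Benjamini-Hochberg adjustment over all genes of a fit at 0.05; the script was checked on simulated counts. SEs of log2 differences were taken as the absolute difference over the root of edgeR's F. Comparisons between cell types and their interaction were fitted on all libraries of the first table or on the 12 sorted libraries of the second; others were fitted within a cell type, and TAM against vehicle on its 6 libraries. The near-empty library stayed in the edgeR fits and was left out of means, sums and figures. The 2 libraries with conflicting codes were left out. Alternatives were DESeq2 1.42.0, median-ratio size factors (both without the near-empty library), no filter and a filter of 5 CPM, other sets of libraries, each library left out in turn, and replicate blocks; scaling by library size alone was added after the data were seen. No library was a copy of another: chi-square over degrees of freedom was at least 2.26 in each of 52 replicate pairs. Figures were drawn with Python 3.11.15, pandas 2.3.3, numpy 2.4.6 and matplotlib 3.10.9. Promoter windows came from RefSeq (GRCm38.p6).

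Members and the 3 other cell cycle lists were chosen with earlier results of these data known. In each comparison values were given for up to 4 S phase and 4 G2/M members of smallest p and up to 3 regulators past the threshold, beside anchors followed in every group (Mcm5, Pcna, Rrm2, Ccne1, Mki67, Top2a, Ccnb1, Cdk1 and Birc5). Other members and genes named in single sentences, such as those a scaling changed, were chosen after their values were seen. Of 181 list and marker genes, 4 were matched through a synonym and 1 was not found.

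Sample codes carry a number shared by LSK and GMP libraries, which was taken as the animal's although no label says so. Deviations from the group means correlated at -0.06 to 0.21 over 14 such pairs of the first table and at 0.08 to 0.23 over 3 of Npm1 Flt3. TAM and vehicle libraries of the same title number correlated at 0.11 to 0.30 over 3 pairs, and were treated as paired in an alternative fit.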

Additional observations from a re-analysis of the deposited data

Results flagged for a closer look

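In Npm1 Flt3 GMP replicate 1 the G2/M sum over the S phase sum was 1.026, against 0.693 to 0.747 in the other 3 libraries of that group, a gap large for the group's range. Its S phase sum was 3334 CPM, the lowest of the 4, and its G2/M sum 3422 CPM lay within the others' range. Of groups with enough libraries for this check there were 2, with 24 values in all, and chance marks about 1 in 20. Without this library 7 S phase members differed between Npm1 Flt3 and Dnmt3a Flt3 GMPs, against 11 with it. The count was 6 without replicate 3 and 6 without replicate 4 of the same group, so the drop was not particular to this library.

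The Flt3 effect on Kif11 differed between cell types by -1.09 ± 0.29 on the log2 scale (adjusted p = 0.019 by edgeR, where 2.06% of all genes were lower). It was -0.42 ± 0.18 in LSK cells and 0.67 ± 0.22 in GMPs when each was fitted alone, and every 4-week Flt3 LSK library lay below every WT LSK library while every Flt3 GMP library lay above every WT GMP library. The adjusted p was 0.0579 to 0.072 when any of 4 single libraries was left out.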

How the results depend on the processing

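Of 422 recomputed counts of members past the threshold, 328 stayed within 1.5 times the value reported and 94 did not; of 2051 recomputed values of single named members, 1857 kept their direction and their side of the threshold, 51 gained the call, 139 lost it and 4 changed sign. Counts below are S phase and G2/M members past the threshold in either direction. Beyond library size alone being used for scaling, which changes the reference against which members are read, and left-out libraries or libraries added back, which change the samples, the cause was not tested.

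With no replicate left out, the TAM and vehicle counts (19 and 22) and those of 6 and 8 weeks against 4 weeks (0 in each) did not leave that range under any alternative run, and library size alone was the only alternative to move the 2-week counts: in GMPs G2/M became 12, and in LSK cells S phase became 15 and G2/M 9. The 4-week Flt3 effect was the least stable. In GMPs G2/M (2) became 1 with DESeq2, with median-ratio size factors, and without the near-empty library, 4 with no filter, 5 with only the 6 libraries compared, 7 with the mean of the 4 Flt3 groups and 9 with library size alone; S phase (0) became 3 with the mean of the 4 Flt3 groups and 2 with library size alone. In LSK cells S phase (2) became 1 with median-ratio size factors or library size alone and 0 with all 30 libraries or the mean of the 4 Flt3 groups, and G2/M (1) became 2 with all 30 libraries and 3 with that mean. For the difference of the Flt3 effect between cell types, S phase (0) became 1 with DESeq2, with median-ratio size factors and with no filter. Between WT LSK cells and GMPs, S phase (5) became 3 with no filter, and between 4-week Flt3 LSK cells and GMPs G2/M (1) became 0 with library size alone. Between Npm1 Flt3 LSK cells and GMPs, S phase (0) became 3 with DESeq2, with a filter of 5 CPM and with the 2 conflicting libraries, and 4 with library size alone, where G2/M (0) became 2. Between Dnmt3a Flt3 LSK cells and GMPs, S phase (1) became 0 with median-ratio size factors, with the conflicting libraries and with library size alone. Between Npm1 Flt3 and Dnmt3a Flt3 LSK cells, G2/M (6) became 12 with DESeq2 or a filter of 5 CPM and 10 with the conflicting libraries.

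With the animal number as a replicate block, the difference of the Flt3 effect between cell types gave 1 S phase and 2 G2/M members, S phase became 0 between Dnmt3a Flt3 LSK cells and GMPs, and the block moved no other count between cell types out of the range of 1.5 times. In the animal block fit of Dnmt3a Flt3 cells only 1 Dnmt3a Flt3 animal, beside 3 of Npm1 Flt3, had both cell types, so the lone Dnmt3a Flt3 pair was taken to vary like the others. With the title number as a replicate block, G2/M became 1 for 4-week Flt3 against WT GMPs and 7 for Npm1 Flt3 against Dnmt3a Flt3 GMPs, and S phase became 1 for 4-week Flt3 against WT LSK cells; for TAM against vehicle the block left 19 and 22. Outside TAM and vehicle the titles share only a number: deviations of same-numbered libraries correlated at -0.02 to 0.00 in WT and 4-week Flt3 GMPs, -0.13 to -0.11 in LSK cells, -0.18 to -0.10 in Npm1 Flt3 and Dnmt3a Flt3 GMPs and -0.01 to 0.02 in their LSK cells.

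When single libraries were left out, S phase and G2/M counts ranged over 2 to 5 and 1 to 4 for WT LSK cells against GMPs, 0 to 0 and 0 to 1 for 4-week Flt3 LSK cells against GMPs, 0 to 1 and 0 to 1 for the difference of the Flt3 effect, 0 to 0 and 0 to 2 for 4-week Flt3 against WT GMPs, 0 to 2 and 0 to 1 in LSK cells, 7 to 14 and 2 to 4 for 2-week GMPs, 5 to 10 and 1 to 2 for 2-week LSK cells, 0 to 1 and 0 to 1 for Npm1 Flt3 LSK cells against GMPs, 0 to 1 and 0 to 0 for Dnmt3a Flt3, 0 to 10 and 2 to 14 for Npm1 Flt3 against Dnmt3a Flt3 GMPs, and 0 to 10 and 0 to 9 in LSK cells. Where this left a Dnmt3a Flt3 group with 1 library, that library was taken to vary like the other group. The 4 members that changed sign had not been called: Birc5 in 2-week LSK cells was -0.0191 with library size alone, and for 6 and 8 against 4 weeks in GMPs Rrm2 ranged from -0.2561 to 0.0059 (without 4-week replicate 3 and 1), Top2a from -0.007 to 0.4795 (without 8-week replicate 3 and 1) and Ube2c from -0.3877 to 0.0297 (without 4-week replicate 3 and 2) on the log2 scale. Depth limits the first table most: its shallowest usable library held 306571 counts, so low members such as Ccne1 were measured least precisely there. Fen1 did not pass the filter in that table, with medians of 1.66 CPM in 4 to 8 week Flt3 GMPs and 1.61 in LSK cells. A library with 253 counts of Ccne1, 2-week Flt3 GMP replicate 3, held 3 of Fen1, and the reason was not tested.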

Other observations

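The 2 Dnmt3a Flt3 libraries whose codes end in the letter of the other cell type had member sums near those of the groups their titles name. Dnmt3a Flt3 LSK replicate 1 held an S phase sum of 8325 and a G2/M sum of 5949 CPM, beside 8755 and 8777, and 6464 and 6148, in the LSK libraries used. Dnmt3a Flt3 GMP replicate 2 held 7972 and 5136 CPM, beside 7952 and 7892, and 4374 and 4904, in the GMP libraries used. The 6 GMP markers summed to 3266 CPM in the first and 48797 CPM in the second, beside 3301 and 4034 CPM in the LSK libraries used and 59512 and 61626 CPM in the GMP libraries used.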
